A study of Mus musculus with 8 samples.

Results

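The genes described here are 10 genes of the early heart muscle cell, chosen by name from the deposited expression table: Myl7, Myl4, Tnnt2, Tnni1, Actc1, Myh6, Myh7, Nppa, Nkx2-5 and Tbx20. All 10 were found among the 55421 Ensembl identifiers of the table through the GENCODE annotation of the mouse genome build mm10. Polyadenylated RNA of mouse embryos at E9.25 was sequenced to compare embryos homozygous for a mutant Gcnf allele with wild type in 2 regions. Gcnf is germ cell nuclear factor, an orphan nuclear receptor encoded by Nr6a1. The groups were Gcnf-/- posterior pieces, wt posterior pieces, Gcnf-/- anterior pieces and wt anterior pieces, with 2 libraries each. Every embryo was at the stage of 9 to 11 somites. A posterior piece held the second pharyngeal arch and everything behind it, and an anterior piece held the first arch and everything in front of it. The libraries carry the numbers 159 and 163 in both Gcnf-/- groups and 153 and 156 in both wt groups, and values of a group are given in that order. Neither the strain nor the deleted part of the Gcnf allele is stated in the labels. Nor do they state whether each library was made from its own embryo, so every p-value covers the spread among these libraries and no more.

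The heart is the first organ to work in the mouse embryo, and its muscle cells form sarcomeres, in which myosin thick filaments pull on actin thin filaments when calcium binds the troponin complex. Transcription factors of the NK, T-box and GATA families switch on the sarcomere genes in the cardiac crescent and keep them on in the looping tube. Cells of the second heart field, which lie in the pharyngeal mesoderm, are added to both ends of that tube, and chamber muscle then takes on its own program of contractile and hormone genes.

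The libraries held 27064113 to 52957993 reads in genes, as recovered from TPM, a level per unit of transcript length that adds up to the same total in every library. Genes above 0 numbered 24717 to 26975, and 16699 genes with at least 1 TPM in at least 2 libraries entered the tests. Xist stood at 30.9 and 25.3 TPM in posterior and anterior library 159 and at or under 0.0749 TPM in the others, so the Gcnf-/- groups each held an Xist-positive library and the wt groups held none. The forebrain genes summed to 8.86 to 12 TPM over the posterior libraries and 253 to 297 TPM over the anterior libraries. Primitive erythroid genes summed to 44312 and 22363 TPM in Gcnf-/- posterior libraries, against 6367 and 7642 TPM in wt posterior libraries, and to 44109 and 25715 TPM in Gcnf-/- anterior libraries, against 4250 and 9971 TPM in wt anterior libraries. TPM is relative, so this class lowers the other values of the libraries that hold more of it. Globin genes took 4.45% of the total in Gcnf-/- posterior 159, the highest share, and 0.426% in wt anterior 153, the lowest.

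Promoters of 3 genes are shown because their genes span the range of levels in these libraries: Myl7 and Actc1 were the most abundant of the 10 genes in all 8 libraries, and Nppa was the lowest in all 8. The sequences are the 250 bases before the RefSeq start site in build GRCm38.p6, read 5′ to 3′ on the strand of the gene. Capitals mark matches to the GATA motif GATAA, the NKX2-5 motif AAGTG, the T-box motif GGTGTGA, the TATA box with the letters TATAAA, and the CArG box bound by serum response factor, each searched on both strands. The windows are chr11:5898783-5899032 on the minus strand for Myl7, chr2:114052876-114053125 on the minus strand for Actc1 and chr4:148000472-148000721 on the plus strand for Nppa.
Myl7: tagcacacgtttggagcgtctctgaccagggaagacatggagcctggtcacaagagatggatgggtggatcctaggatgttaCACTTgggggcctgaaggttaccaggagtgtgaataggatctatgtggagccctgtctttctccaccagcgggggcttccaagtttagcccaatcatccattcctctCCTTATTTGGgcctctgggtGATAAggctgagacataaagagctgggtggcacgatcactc
Actc1: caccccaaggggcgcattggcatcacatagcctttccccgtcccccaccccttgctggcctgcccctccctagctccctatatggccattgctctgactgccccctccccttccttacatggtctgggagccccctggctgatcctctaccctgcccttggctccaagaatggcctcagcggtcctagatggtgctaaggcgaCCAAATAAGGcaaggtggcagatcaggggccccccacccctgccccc
Nppa: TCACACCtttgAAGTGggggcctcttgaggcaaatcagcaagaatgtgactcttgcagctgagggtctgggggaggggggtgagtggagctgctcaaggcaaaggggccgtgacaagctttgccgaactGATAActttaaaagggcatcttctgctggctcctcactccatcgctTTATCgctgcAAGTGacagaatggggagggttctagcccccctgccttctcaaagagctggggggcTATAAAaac
The CArG box was found in 2 of the 10 genes, Myl7 and Actc1, and in 1.5% of 32851 RefSeq promoters of the same length. The NKX2-5 motif was found in 6 of the 10 genes and 40.7% of promoters, and the GATA motif in 3 of the 10 and 22.6% of promoters. A gene was counted if any of its start sites had a match, whereas the percentages count single promoters. Tnnt2, Tnni1 and Myh7 had 2 start sites each, and Tnni1 had its NKX2-5 match at only 1 of them. Among the 10 genes only Nppa had a match to the T-box motif, which 3.3% of promoters hold, and only Nppa had a TATA box, which 12.4% hold. A MEF2 box was found in 0 of the 10 genes and in 2.9% of promoters. A match is a description of letters in this window and says nothing of binding.

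The regulatory light chains come first, since Myl7 was among the strongest signals of the set. Myl7, the atrial regulatory light chain that all early heart muscle expresses, had 1796 and 218 TPM in Gcnf-/- posterior libraries, 233 and 707 TPM in wt posterior libraries, 231 and 71.0 TPM in Gcnf-/- anterior libraries, and 75.3 and 8.67 TPM in wt anterior libraries. The highest library was thus Gcnf-/- posterior 159, the lowest was wt anterior 156, and in both regions the ranges of the 2 genotypes overlapped. Myl4, the atrial essential light chain, had 129 and 26.8 TPM in Gcnf-/- posterior libraries, 23.4 and 61.3 TPM in wt posterior libraries, 16.9 and 5.10 TPM in Gcnf-/- anterior libraries, and 7.01 and 2.39 TPM in wt anterior libraries. Its highest and lowest libraries were the same as those of Myl7, and every posterior library lay above every anterior one.

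The heavy chains Myh6 and Myh7 are neighbours on chromosome 14 and encode the fast alpha and slow beta motor of the cardiac thick filament. Myh6 had 125 and 7.86 TPM in Gcnf-/- posterior libraries, 13.4 and 36.7 TPM in wt posterior libraries, 7.16 and 1.63 TPM in Gcnf-/- anterior libraries, and 0.808 and 0.512 TPM in wt anterior libraries. All posterior libraries were above all anterior ones, and in the anterior pieces both Gcnf-/- libraries were above both wt libraries. Myh7 had 14.9 and 1.01 TPM in Gcnf-/- posterior libraries, 1.34 and 22.7 TPM in wt posterior libraries, 13.5 and 4.64 TPM in Gcnf-/- anterior libraries, and 8.59 and 2.47 TPM in wt anterior libraries. Unlike Myh6, its posterior and anterior ranges overlapped in both genotypes. The 2 transcripts share sequence, with 22.6% of the 50-base windows of Myh6 found in Myh7, so reads from one could have been given to the other. The kit does not mark strand, and the antisense transcript Mhrt, at or under 0.0878 TPM in all libraries, overlaps 5.62% of the Myh7 exons.

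On the thin filament, Actc1, cardiac alpha-actin, had 1382 and 153 TPM in Gcnf-/- posterior libraries, 213 and 661 TPM in wt posterior libraries, 149 and 38.5 TPM in Gcnf-/- anterior libraries, and 52.0 and 21.2 TPM in wt anterior libraries. Posterior libraries again lay above all anterior ones, with 159 the highest and wt anterior 156 the lowest. Tnnt2, cardiac troponin T, which anchors the troponin complex to tropomyosin, had 54.7 and 9.76 TPM in Gcnf-/- posterior libraries, 9.69 and 28.2 TPM in wt posterior libraries, 7.60 and 2.86 TPM in Gcnf-/- anterior libraries, and 3.01 and 0.471 TPM in wt anterior libraries. Within each region the 2 genotypes overlapped for both genes. Tnni1, slow skeletal troponin I, is the inhibitory troponin of the embryonic heart and of slow skeletal fibres. It had 117 and 63.5 TPM in Gcnf-/- posterior libraries, 34.5 and 68.9 TPM in wt posterior libraries, 16.4 and 8.75 TPM in Gcnf-/- anterior libraries, and 10.7 and 2.12 TPM in wt anterior libraries. Its posterior libraries differed less from each other than those of Actc1 or Tnnt2 did, and all 4 were above all anterior libraries. Tnni1 and Tnnt2 lie near each other on chromosome 1, at chr1:135779434-135810989 and chr1:135836354-135852260.

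Nppa, atrial natriuretic peptide, a hormone that marks chamber muscle as it leaves the primary tube, was the sparsest of the set. It had 12.4 and 0 TPM in Gcnf-/- posterior libraries, 0 and 0.740 TPM in wt posterior libraries, 0 and 0.130 TPM in Gcnf-/- anterior libraries, and 0.123 and 0 TPM in wt anterior libraries. In reads these are 161 and 0, 0 and 9, 0 and 1, and 1 and 0, so 1 library, Gcnf-/- posterior 159, held nearly all of them. A count of 0 allows up to 3 reads, which is 0.231 to 0.466 TPM over the 8 libraries, counting error only. Nppa did not reach 1 TPM in 2 libraries and was not tested. The antisense gene Gm13054 covers 61.5% of the Nppa exons, and without strand the reads of both cannot be told apart. Gm13054 was given 0.260 TPM in wt anterior 153 and 0 TPM in every other library, Gcnf-/- posterior 159 included.

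Of the regulators, Nkx2-5, the NK homeobox factor at the top of the cardiac program and present also in pharyngeal tissue, had 32.8 and 5.13 TPM in Gcnf-/- posterior libraries, 8.05 and 30.6 TPM in wt posterior libraries, 12.2 and 14.3 TPM in Gcnf-/- anterior libraries, and 19.6 and 7.71 TPM in wt anterior libraries. The lowest value and the highest both lay in the Gcnf-/- posterior group, so anterior and posterior ranges overlapped. Tbx20, a T-box factor of the heart tube that is also expressed in cranial motor neurons, had 21.2 and 11.5 TPM in Gcnf-/- posterior libraries, 7.70 and 10.9 TPM in wt posterior libraries, 2.09 and 1.34 TPM in Gcnf-/- anterior libraries, and 1.18 and 0.696 TPM in wt anterior libraries. Tbx20 was the one gene of the 10 whose Gcnf-/- libraries were above both wt libraries in both regions.

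**Figure D1:**
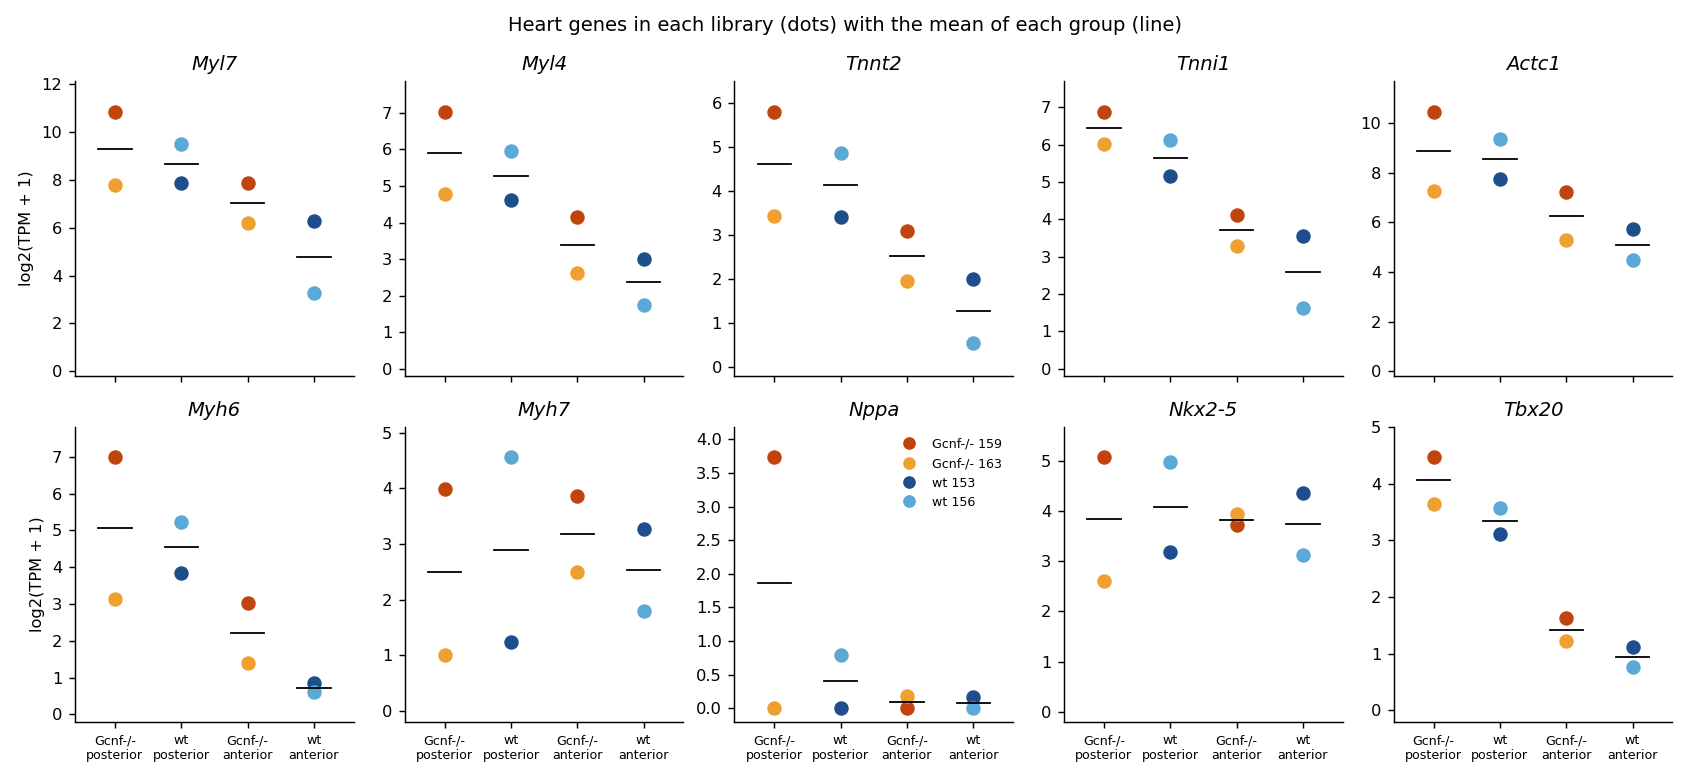
Level of each of the 10 heart genes in each library, as log2(TPM + 1) on the vertical axis, with the 4 groups on the horizontal axis; dots are libraries and the line is the mean of a group. Library 159 is the upper Gcnf-/- dot in every posterior panel, while wt 156 is above wt 153 in posterior panels and below it in anterior panels.

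The libraries of 1 group differed far more in these genes than in most genes. Between 159 and 163 of the Gcnf-/- posterior pieces, 8 of the 10 genes differed by more than 1 on the log2(TPM + 1) scale, against 2.66% of the 16699 genes. The counts were 7 of 10 between wt posterior libraries (1.89% of genes), 6 of 10 between Gcnf-/- anterior libraries (2.06%) and 7 of 10 between wt anterior libraries (1.77%). The ratios of 159 to 163 in the Gcnf-/- posterior pieces were 15.9 for Myh6, 14.8 for Myh7, 9.01 for Actc1 and 8.25 for Myl7, and only 1.84 for both Tnni1 and Tbx20. In wt posterior pieces 156 exceeded 153 by 16.9 times for Myh7 and 3.03 times for Myl7. In wt anterior pieces the order was the other way, with Myl7 8.69 times and Tnnt2 6.39 times higher in 153 than in 156. A library high in heart transcripts in one region was thus not high in the other for the wt numbers. Posterior over anterior of 1 number was 7.78 for 159, 3.06 for 163, 3.09 for 153 and 81.5 for 156 for Myl7, while for Tbx20 it was 10.2, 8.62, 6.51 and 15.6.

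**Figure D2:**
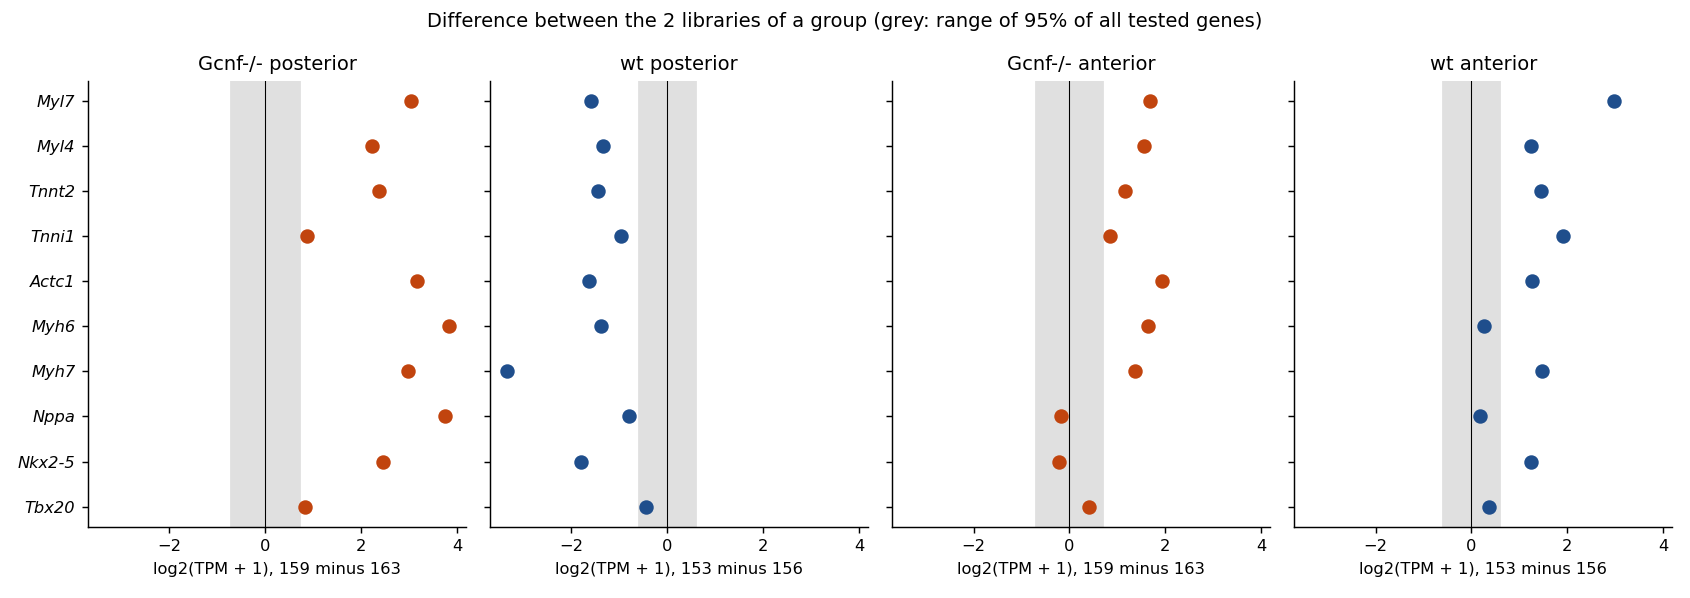
Difference between the 2 libraries of each group for each heart gene, in log2(TPM + 1), set against the range that holds 95% of the 16699 tested genes. The Myh6, Nppa, Actc1 and Myl7 differences of the Gcnf-/- posterior group exceed 3, while 95% of genes differ by less than 0.721 there.

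Other sarcomere genes varied with the 10 genes within groups. The sums of cardiac factor, proepicardium and second heart field genes differed less between posterior libraries of a group, but not every gene of these lists did. The 10 genes summed to 3685 and 496.6 TPM in Gcnf-/- posterior libraries, 543.9 and 1628 TPM in wt posterior libraries, 456 and 148 TPM in Gcnf-/- anterior libraries, and 178 and 46.2 TPM in wt anterior libraries. A list of 18 other sarcomere genes summed to 647 and 97.4, 97.4 and 297, 103 and 46.5, and 45.3 and 25.6 TPM in those groups. In 17 of the 18, Gcnf-/- posterior 159 was above 163, and in 17 of the 18 wt posterior 156 was above 153. By contrast, 12 cardiac transcription factor genes summed to 651 and 659 TPM in Gcnf-/- posterior libraries and 474 and 505 TPM in wt posterior libraries. Of the 12, 2 differed by more than 1 in log2(TPM + 1) between the Gcnf-/- posterior libraries and 1 between the wt posterior libraries. Myocd had 10.0 and 3.94 TPM in the former and 5.65 and 11.3 TPM in the latter. Smyd1 had 21.3 and 5.36 TPM and 9.08 and 20.8 TPM, so both varied in the same direction as the 10 genes. The 6 proepicardium genes, of the cell cluster that later covers the heart, summed to 598 and 564 TPM in Gcnf-/- posterior libraries and 312 and 328 TPM in wt posterior libraries. Aldh1a2, also expressed in trunk mesoderm, made up 525 and 467 TPM of the Gcnf-/- sums and 266 and 282 TPM of the wt sums. In either posterior group 0 of the 6 differed by more than 1 in log2(TPM + 1). Second heart field genes summed to 349 and 348 TPM in Gcnf-/- posterior libraries and 333 and 344 TPM in wt posterior libraries. Less heart tissue in a piece and less RNA of these genes per heart cell cannot be told apart in such bulk libraries.

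Several other lists differed between libraries of a group beside the heart genes, and their part in the heart values was not tested. Visceral endoderm genes summed to 169 and 968 TPM in Gcnf-/- posterior libraries, with all 10 lower in 159, where the heart genes were high. They summed to 2307 and 1873 TPM in wt posterior libraries, 7.87 and 12.6 TPM in Gcnf-/- anterior libraries, and 131 and 15.5 TPM in wt anterior libraries, with all 10 higher in wt anterior 153. Hindbrain and second-arch genes, which mark the level of the cut, summed to 11.1 and 25.8 TPM in Gcnf-/- anterior libraries and 19.3 and 3.15 TPM in wt anterior libraries, so wt anterior 156 was lowest in these as well as in the heart genes. Over the posterior libraries the same list summed to 133 to 157 TPM. Smooth muscle genes, several of which early heart muscle also expresses, summed to 895 and 426 TPM in Gcnf-/- posterior libraries and 314 and 572 TPM in wt posterior libraries. Skeletal muscle genes summed to 21.1 and 29.6 TPM in Gcnf-/- posterior libraries and 24.3 and 22.1 TPM in wt posterior libraries, and to at most 4.04 TPM in any anterior library. Among them Myog, which starts myotome differentiation, had 2.45 and 7.20 TPM in Gcnf-/- posterior libraries, 1.17 and 2.00 TPM in wt posterior libraries, and 0 in all anterior libraries.

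**Figure D3:**
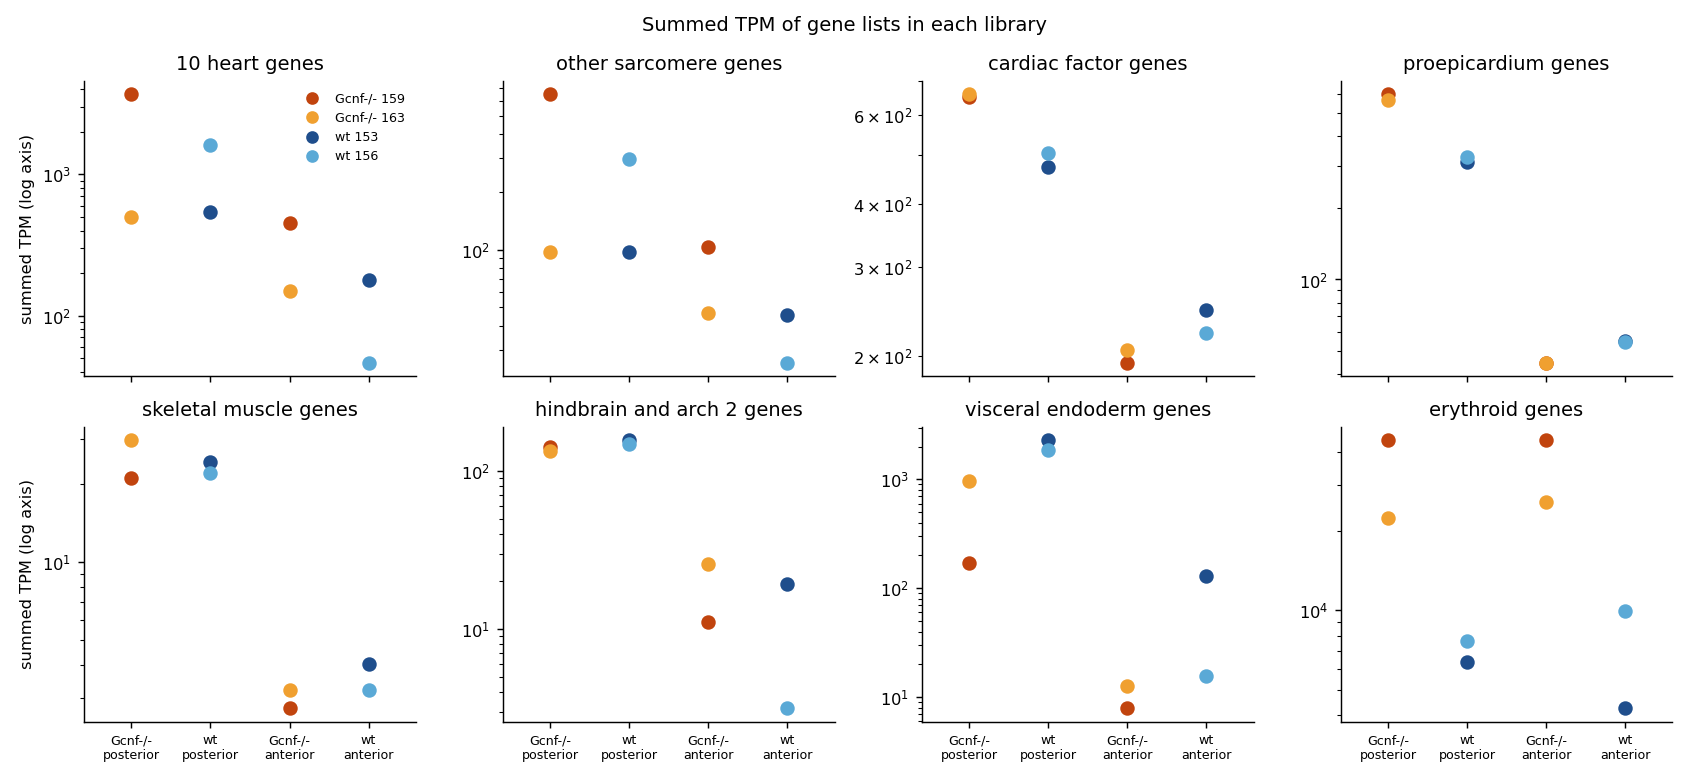
Summed TPM of the 10 heart genes and of 7 other gene lists in each library, on log axes, by group. The sums of the 10 heart genes and of the other sarcomere genes spread widely within groups, at 3685 and 496.6 TPM for the heart genes of Gcnf-/- posterior libraries. The cardiac factor and proepicardium sums lie close together within each posterior group.

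Comparing genotypes within a region asks whether loss of Gcnf moved these genes. In the posterior pieces, limma with Benjamini-Hochberg adjustment called 0 of the 9 tested genes, against 11.5% of all genes tested. Of the 9, Tbx20 alone had an unadjusted p under 0.05, against 4652 of all 16699 genes. In the anterior pieces limma called 0 of 9, against 23.6% of all genes. There 0 of the 9 had an unadjusted p under 0.05, against 6228 of all 16699 genes. The median difference of the 9 genes in log2(TPM + 1), Gcnf-/- minus wt, was 0.52 in the posterior pieces, where that of all genes was 0.05. It was 1.11 in the anterior pieces, where that of all genes was 0.02, and the sign was positive for 9 of 9 genes there and for 7 of 9 in the posterior pieces. For Nkx2-5 in the anterior pieces that sign was negative under quantile normalization, at -0.05. Leaving out 1 library brought the anterior differences of Myh7 and Nkx2-5 as low as -0.083 and -0.53. Most of these genes varied together over the libraries, so their signs are not separate observations.

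The standard errors set what could be seen. For Myl7 the posterior difference was 0.62 ± 1.17 (SE, adjusted p = 0.77), with a 95% interval of -2.03 to 3.28, and the anterior difference was 2.25 ± 1.17 (adjusted p = 0.20), with an interval of -0.40 to 4.91. Myh6 differed by 0.52 ± 1.06 in the posterior pieces (adjusted p = 0.79) and by 1.49 ± 1.06 in the anterior pieces (adjusted p = 0.35). Such intervals include no difference as well as differences of several fold. Tbx20 had the smallest error of the set, with a difference of 0.72 ± 0.29 in the posterior pieces (adjusted p = 0.15) and 0.48 ± 0.29 in the anterior pieces (adjusted p = 0.27). Without Gcnf-/- posterior library 163, the posterior difference of Tbx20 was 1.13 with an adjusted p of 0.039, and without wt anterior library 153 the anterior difference of Tnni1 was 2.06 with an adjusted p of 0.028, against 1.11 ± 0.60 with all libraries (adjusted p = 0.22). Non-overlapping libraries, Gcnf-/- higher, were seen for Tbx20 in the posterior pieces, 1 of 9 genes, against 33.4% of all genes. They were seen for Myh6 and Tbx20 in the anterior pieces, 2 of 9, against 35.1% of all genes. The remaining adjusted p-values lay between 0.42 and 0.89 in the posterior pieces and between 0.30 and 0.95 in the anterior pieces. The posterior differences of Myl7, Myl4, Tnnt2, Actc1 and Myh6 turned negative without library 159 of that group, for example to -0.90 for Myl7 and -1.40 for Myh6.

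Whether the genotype difference itself differed between the regions was tested as an interaction, anterior minus posterior. It passed for 0 of the 9 genes by limma, where 1.01% of all genes passed. An unadjusted p under 0.05 was seen for 0 of the 9 and for 2109 of all 16699 genes. The estimates ran from -0.23 for Tbx20 to 1.63 ± 1.65 for Myl7.

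The region comparison, posterior minus anterior, gave the clearest differences. In Gcnf-/- embryos, 2 of 9 genes were higher in posterior pieces, Tnni1 by 2.74 ± 0.60 (adjusted p = 0.014) and Tbx20 by 2.63 ± 0.29 (adjusted p = 0.0004), where 8.01% of all genes were called higher. In wt embryos, 5 of 9 were higher in posterior pieces, where 7.86% of all genes were. These were Tbx20 by 2.40 ± 0.29 (adjusted p = 0.00079), Tnni1 by 3.04 ± 0.60 (adjusted p = 0.0097), Myl4 by 2.90 ± 0.79 (adjusted p = 0.042), Myh6 by 3.82 ± 1.06 (adjusted p = 0.045) and Tnnt2 by 2.86 ± 0.81 (adjusted p = 0.048). In neither genotype was any of the 9 called lower, where 8.1% of all genes were in Gcnf-/- embryos and 6.65% in wt embryos. Differences that did not pass in Gcnf-/- embryos were 2.85 ± 1.06 for Myh6 (adjusted p = 0.11), 2.58 ± 1.02 for Actc1 (adjusted p = 0.14), 2.53 ± 0.79 for Myl4 (adjusted p = 0.066), 2.28 ± 1.17 for Myl7 (adjusted p = 0.25) and 2.09 ± 0.81 for Tnnt2 (adjusted p = 0.13). In wt embryos Myl7 at 3.91 ± 1.17 (adjusted p = 0.057) and Actc1 at 3.45 ± 1.02 (adjusted p = 0.055) did not pass. The median over the 9 genes was 2.53 in Gcnf-/- embryos, against -0.04 for all genes, and 2.90 in wt embryos, against -0.10.

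Tbx20 passed in both genotypes under every alternative tried. Tnni1 did not: its adjusted p was 0.096 in Gcnf-/- embryos without anterior library 163 and 0.052 without posterior library 159, and 0.11 in wt embryos without posterior library 156. The calls of Myl4, Tnnt2 and Myh6 in wt embryos were each lost without wt anterior 156, wt posterior 153 or wt posterior 156, with adjusted p-values up to 0.29, 0.31 and 0.29. The wt count was then 2, 2 and 1 of 9, and it was 2 of 9 under median-of-ratios scaling or quantile normalization. Tnnt2 was also lost without either Gcnf-/- anterior library (adjusted p = 0.055 both times), and Myh6 without wt anterior 153 (adjusted p = 0.10). Without Gcnf-/- posterior library 163 the Gcnf-/- count was 6 of 9, and without anterior 163 or posterior 159 it was 1. Libraries did not overlap, posterior higher, for 6 of 9 genes in Gcnf-/- embryos (22% of all genes) and for 7 of 9 in wt embryos (21.5%).

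Myh7 and Nkx2-5 did not pass in either genotype. The Myh7 difference was -0.68 ± 1.18 in Gcnf-/- embryos (adjusted p = 0.77) and 0.37 ± 1.18 in wt embryos (adjusted p = 0.87). Nkx2-5 differed by 0.02 ± 0.80 in Gcnf-/- embryos (adjusted p = 0.99), with a 95% interval of -1.80 to 1.83, and by 0.34 ± 0.80 in wt embryos (adjusted p = 0.81).

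**Figure D4:**
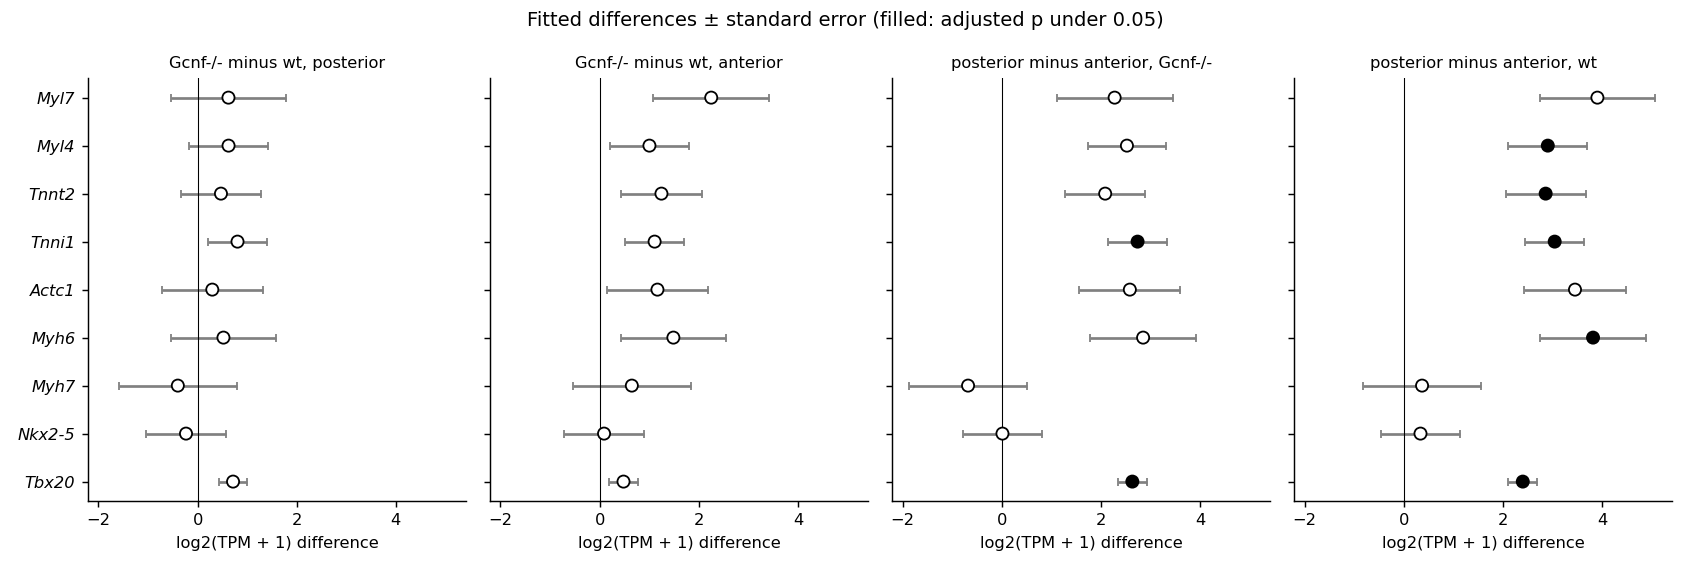
Differences of the 9 tested heart genes in log2(TPM + 1) with bars of 1 standard error, for Gcnf-/- minus wt in each region and for posterior minus anterior in each genotype. Filled points have an adjusted p under 0.05: 0 of 9 in both genotype comparisons, Tnni1 and Tbx20 in the Gcnf-/- region comparison, and 5 of 9 in the wt one.

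The ratio of Myh7 to Myh6 and the share of Nkx2-5 also differed by region, while the regions overlapped in the shares of Tnni1 and Myl7. The ratio of Myh7 to Myh6 was 0.119 and 0.128 in Gcnf-/- posterior libraries, 0.10 and 0.618 in wt posterior libraries, 1.89 and 2.84 in Gcnf-/- anterior libraries, and 10.6 and 4.83 in wt anterior libraries. It was under 1 in all posterior libraries and over 1 in all anterior ones, and no test was made of it. Nkx2-5 made up 0.891% and 1.03% of the summed TPM of the 10 genes in Gcnf-/- posterior libraries, 1.48% and 1.88% in wt posterior libraries, 2.68% and 9.67% in Gcnf-/- anterior libraries, and 11.0% and 16.7% in wt anterior libraries. This share depends on the summed TPM too, and the region difference of Nkx2-5 itself did not pass. The share of Tnni1 was 3.16% and 12.8% in Gcnf-/- posterior libraries and 6.35% and 4.23% in wt posterior libraries. The high library, Gcnf-/- posterior 163, was also the one with the most Myog, at 7.20 TPM. The wt posterior pair went the other way, since 153 had the higher share but less Myog, at 1.17 against 2.00 TPM in 156. Anterior libraries had 0 TPM of Myog and 2.12 to 16.4 TPM of Tnni1. A link between the Tnni1 share and Myog was not tested. Myl7 took 48.7% and 43.8% in Gcnf-/- posterior libraries, 42.9% and 43.4% in wt posterior libraries, 50.6% and 47.9% in Gcnf-/- anterior libraries, and 42.2% and 18.7% in wt anterior libraries. The low share in wt anterior 156 rests on 49 reads of Myl7.

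**Figure D5:**
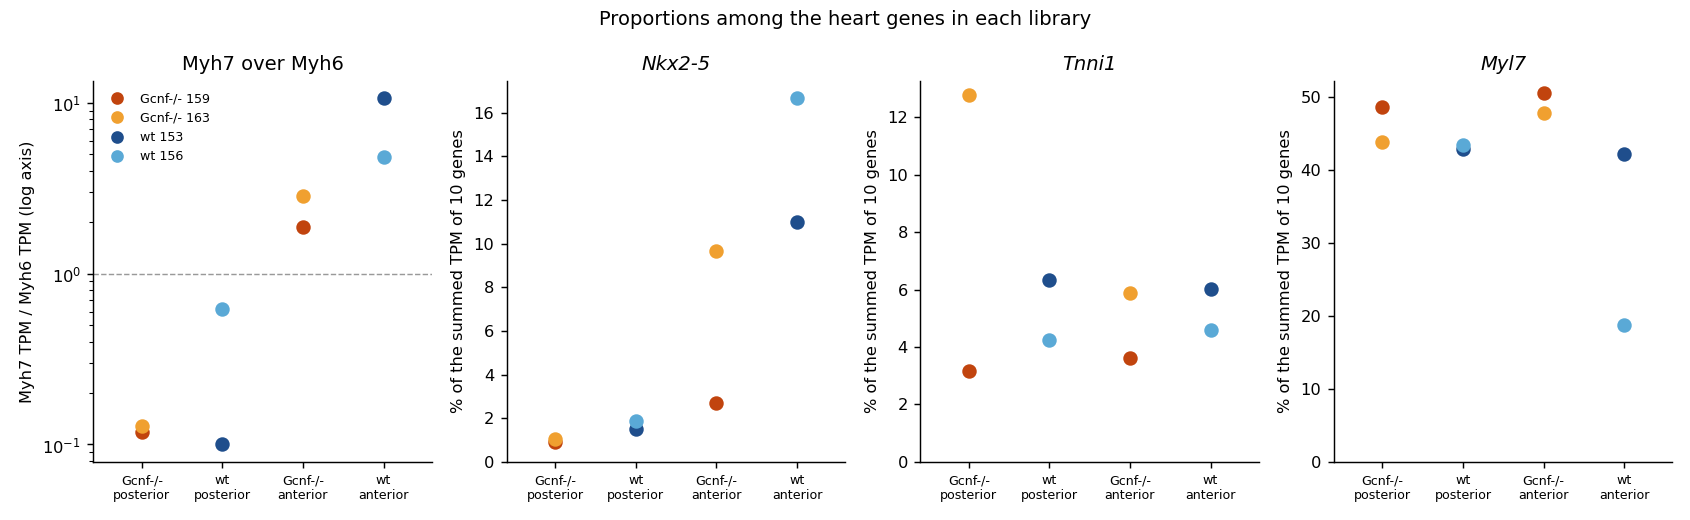
Ratio of Myh7 to Myh6 TPM on a log axis, and the share of Nkx2-5, Tnni1 and Myl7 in the summed TPM of the 10 heart genes in percent, by group with 1 dot a library. The ratio is under 1 in all 4 posterior libraries and over 1 in all 4 anterior libraries.

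Across the 8 libraries most of the 10 genes followed a shared pattern. Pearson's r of a gene with the mean of the other 9, in log2(TPM + 1), was 0.98 for Tnnt2 and Actc1, 0.97 for Myl4, 0.96 for Myh6, 0.95 for Myl7, 0.88 for Tnni1 and 0.83 for Tbx20. It was 0.75 for Nppa, 0.61 for Nkx2-5 and 0.51 for Myh7. Libraries of 1 region and possibly of 1 embryo enter together, so these values are descriptions. Among 10801 other genes, the 12 most like the mean pattern were Ldb3, Asb2, Ppp1r14c, Slc8a1, Mybpc3, Tnnc1, Jph2, Pgam2, Nexn, Trim55, Myl1 and Myom1, with r of 0.99 to 0.97. Ldb3, a Z-disc protein of striated muscle, had the highest r, with 18.9 and 2.27 TPM in Gcnf-/- posterior libraries, 2.42 and 7.92 TPM in wt posterior libraries, 2.19 and 0.936 TPM in Gcnf-/- anterior libraries, and 0.751 and 0.0855 TPM in wt anterior libraries. Slc8a1 is the sodium-calcium exchanger of heart muscle, Mybpc3 is cardiac myosin-binding protein C and Tnnc1 is the calcium-binding troponin. The lowest r were those of Rnf41, Adi1, Timmdc1, Rpa2 and Trp53rka, at -0.96.

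Further genes of the heart program were read from lists, against the shares of all genes called given above. None of the 18 other sarcomere genes passed for genotype by limma in either region. An unadjusted p under 0.05 was seen for 0 of the 18 in posterior pieces, against 4652 of all 16699 genes. In anterior pieces it was seen for 1 of the 18, against 6228 of all genes. The median difference of the 18 was 0.47 in posterior pieces and 0.65 in anterior pieces. For region, 3 of 18 were higher in posterior pieces of Gcnf-/- embryos and 4 of 18 in those of wt embryos. Of 12 cardiac transcription factor genes, 2 rose in Gcnf-/- posterior pieces and 0 fell. Tbx5, which patterns the inflow side of the heart, rose by 1.10 ± 0.16 (adjusted p = 0.0041), with 22.3 and 18.8 TPM in Gcnf-/- libraries and 9.20 and 8.82 TPM in wt libraries. The 10 heart genes summed to 3685 and 496.6 TPM in those Gcnf-/- libraries, a spread that Tbx5 did not share. Each piece also held tissue other than heart, and which cells expressed the genes of this list was not tested. Gata6 rose by 0.87 ± 0.22 (adjusted p = 0.036), a call lost without any 1 of the posterior libraries, with adjusted p-values of 0.073 and 0.096 without Gcnf-/- 159 and 163 and 0.20 and 0.13 without wt 153 and 156. In anterior pieces 1 of the 12 fell, Hopx, a homeodomain-only cofactor, by 1.29 ± 0.20 on the log2 scale (adjusted p = 0.0030), with 15.3 and 11.6 TPM in Gcnf-/- libraries and 35.7 and 32.6 TPM in wt libraries. Of the 12, 6 genes, among them Gata4, Hand1 and Tbx5, were higher in posterior than anterior pieces in each genotype. In posterior pieces 1 of the 12 was called lower in wt embryos and 0 in Gcnf-/- embryos.

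Chamber and second heart field lists held genes called in each direction. Of 10 tested chamber genes, Irx4, a ventricular homeobox factor that is also expressed outside the heart, was the 1 that fell in Gcnf-/- anterior pieces, by 2.08 ± 0.20 on the log2 scale (adjusted p = 0.00035). It had 1.47 and 1.89 TPM in Gcnf-/- anterior libraries and 10.9 and 9.69 TPM in wt anterior libraries. In Gcnf-/- posterior pieces 1 of the 10 rose, Tbx3, and 0 fell. Tbx3 had 35.2 and 30.8 TPM in Gcnf-/- posterior libraries and 17.5 and 18.0 TPM in wt posterior libraries. Its limma call was lost under median-of-ratios scaling (adjusted p = 0.054). Of 12 second heart field genes, 2 rose and 2 fell in Gcnf-/- anterior pieces. In Gcnf-/- posterior pieces 2 of the 12 rose and 3 fell, where 11.5% of all genes were called. Fgf8, a growth factor of the pharyngeal region and of several other signalling centres, fell by 1.21 ± 0.18 on the log2 scale in anterior pieces (adjusted p = 0.0023), with 20.6 and 31.0 TPM in Gcnf-/- libraries and 55.4 and 64.6 TPM in wt libraries. Of 6 proepicardium genes, 2 rose and 1 fell in Gcnf-/- anterior pieces. In Gcnf-/- posterior pieces 3 of the 6 rose, Upk3b, Wt1 and Tcf21, and 0 fell. By limma the Tcf21 call was lost under median-of-ratios scaling (adjusted p = 0.062), quantile normalization (adjusted p = 0.067) and no trend (adjusted p = 0.073). It was also lost with a pseudocount of 0.1 (adjusted p = 0.052) and with no filter on low values (adjusted p = 0.14). Upk3b, a mesothelial surface protein, had 29.8 and 42.1 TPM in Gcnf-/- libraries and 16.5 and 15.6 TPM in wt libraries (1.10 ± 0.17, adjusted p = 0.0056), a call lost without wt posterior 153 (adjusted p = 0.060) or 156 (adjusted p = 0.056). Wt1 was lost without Gcnf-/- posterior 163 (adjusted p = 0.059) or wt posterior 156 (adjusted p = 0.082), and Tcf21 without Gcnf-/- posterior 163 (adjusted p = 0.17) or either wt posterior library (adjusted p = 0.25 and 0.10).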

How the data were processed

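Libraries of anterior or posterior mouse embryo tissue were grouped by genotype and region as titled. Per the labels' protocols, RNA was purified from tissue kept in RNAlater and sequenced from unstranded polyadenylated libraries. The tools were CASAVA 1.8.2 and STAR on build mm10, per the submitters' processing notes; the counting tool, annotation and STAR version were not given in the sources used here. TPM values are what the authors deposited, and each column summed to 1000000. Names and exon-union lengths came from GENCODE M21 (55240 of 55421 identifiers matched). Of the values above 0, 98.8% to 98.89% came out as whole reads (tolerance 0.01 read) once multiplied by length and rescaled.

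Genes with at least 1 TPM in at least 2 libraries were fitted as log2(TPM + 1) using R 4.3.3 and limma 3.58.1. The model had 4 group means and a mean-variance trend, leaving 4 residual and 4.68 prior degrees of freedom. The log2 scale understates changes of low genes. Two-sided p-values were adjusted by Benjamini-Hochberg over all 16699 genes, and 0.05 was the threshold. The fit was tested on simulated data. Some list genes are not reported here. Members, lists and rules were chosen with earlier results of these data known. All 10 members are named, and of each list up to 3 genes with the smallest p in a contrast or those that define a cell type; of the genes outside the members, the 12 highest and 5 lowest r over the 8 libraries are named, without predicted, mitochondrial and sex-linked genes. Alternatives covered pseudocount, filter, scaling, trend, samples in the fit, replicate block and leaving out libraries.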

Additional observations from a re-analysis of the deposited data

Results flagged for a closer look

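No member of the heart set differed in its genotype effect between regions by the interaction test (limma, Benjamini-Hochberg), while Irx4, Fgf8 and Aldh1a2 of the neighbouring lists did, anterior effect minus posterior effect. For Irx4 the difference of effects was -1.96 ± 0.28 (adjusted p = 0.020), with -0.12 ± 0.20 in posterior pieces and -2.08 ± 0.20 in anterior pieces. For Fgf8 it was -1.43 ± 0.25 (adjusted p = 0.039), with 0.22 ± 0.18 in posterior pieces and -1.21 ± 0.18 in anterior pieces. Aldh1a2, the enzyme that makes retinoic acid in trunk mesoderm and the proepicardium, gave -2.31 ± 0.34 (adjusted p = 0.021), with 525 and 467 TPM in Gcnf-/- posterior libraries, 266 and 282 TPM in wt posterior libraries, 17.6 and 9.01 TPM in Gcnf-/- anterior libraries, and 34.2 and 38.8 TPM in wt anterior libraries. With no filter on low values the calls of Irx4, Fgf8 and Aldh1a2 were lost (limma, adjusted p = 0.11, 0.16 and 0.12). Those of Fgf8 and Aldh1a2 were also lost under median-of-ratios scaling (adjusted p = 0.065 and 0.055) and quantile normalization (adjusted p = 0.069 and 0.056). Fgf8 was lost with no trend as well (adjusted p = 0.070). Each of these 3 calls was lost when some single library was left out. The highest adjusted p was 0.080 for Irx4 without wt posterior 156, and 0.21 for Fgf8 and 0.14 for Aldh1a2, both without wt posterior 153.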

How the results depend on the processing

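Over the 7 called differences of single heart genes, 104 of 140 alternative values kept the call, 36 lost it and 0 reversed. Of 562 values of uncalled differences, 25 gained a call and 41 changed sign. The count of heart genes higher in posterior pieces of Gcnf-/- embryos, 2 with all libraries, was 1 with no filter on low values and 1 without both libraries numbered 159; leaving out 1 library gave 1 to 6. In wt embryos the count of 5 was 1 with no filter and 2 under median-of-ratios scaling, quantile normalization, TPM without globin, mitochondrial and highest genes, no trend, or without both libraries numbered 153; leaving out 1 library gave 1 to 5. The counts of 0 for genotype became 0 to 1 in each region when 1 library was left out. The cause was not tested.

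The labels do not tie a library number to an embryo. Xist was high in both libraries numbered 159 and low in both numbered 163, and erythroid sums were close within each of these numbers. Deviations of same-numbered libraries correlated at 0.14 in Gcnf-/- and 0.02 in wt libraries across genes. With the number as a replicate block the region counts were 5 in Gcnf-/- and 7 in wt embryos, and the interaction count was 0.

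Sign changes concerned uncalled differences alone. In posterior pieces, Gcnf-/- minus wt ran, leaving out 1 library, over -0.90 to 2.14 for Myl7, -0.49 to 1.74 for Myl4, -0.71 to 1.66 for Tnnt2, -1.28 to 1.88 for Actc1, -1.40 to 2.44 for Myh6, -2.07 to 1.27 for Myh7 and -1.47 to 1.00 for Nkx2-5. In anterior pieces the ranges were -0.083 to 1.38 for Myh7 and -0.53 to 0.71 for Nkx2-5. Posterior minus anterior ran over -2.17 to 0.81 for Myh7 and -1.22 to 1.25 for Nkx2-5 in Gcnf-/- embryos, and over -1.30 to 2.04 and -0.56 to 1.24 in wt embryos. Without both libraries numbered 153, the posterior genotype difference was -0.18 for Myl7, -0.051 for Myl4, -0.25 for Tnnt2, -0.52 for Actc1 and -0.17 for Myh6. Without both numbered 159 it was -0.90, -0.49, -0.71, -1.28 and -1.40, the anterior one of Myh7 was -0.032, and Nkx2-5 in Gcnf-/- embryos differed by region by -1.32. That Nkx2-5 value was -0.024 with a pseudocount of 0.1 and -0.0053 with 0.5, and its anterior genotype difference was -0.053 under quantile normalization.

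Scaling moved the median of all genes by under 0.1. The share of higher calls among all posterior genotype calls was 74.5%, against 54.3% with median-of-ratios scaling and 53.9% with quantile normalization. With 2 libraries a group, standard errors of the 9 heart genes ran from 0.29 for Tbx20 to 1.18 for Myh7 on the log2 scale, and genotype differences as large as 2.25 for Myl7 in anterior pieces did not pass.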
